A study of Mus musculus with 4 samples.

Results

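Small nucleolar RNAs (snoRNAs) and the noncoding genes that carry them were examined in the transcriptomes of splenic regulatory T (Treg) cells, the Foxp3-expressing CD4+ T cells that restrain immune responses. The rows were chosen by gene symbol. A symbol beginning with Snord marked a box C/D snoRNA gene, one beginning with Snora a box H/ACA snoRNA gene, and Snhg followed by a digit, or Gas5, a named host gene. Of 24087 genes in the table, 107 matched, made up of 92 snoRNA genes (59 box C/D and 33 box H/ACA) and 15 named host genes. The members used for comparisons were also selected on their measured level, at least 1 FPKM (fragments per kilobase of gene and per 1000000 counted fragments) in at least 2 libraries. That limit left 79 members, namely 68 snoRNA genes and 11 host genes, among 11399 genes that passed it in the whole table.

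The 4 libraries came from Treg cells sorted from steady-state spleen of C57BL/6 mice as CD3+CD4+YFP+ cells. KO libraries (2) were from Foxp3Cre-YFP mice with both Setd2 alleles floxed (Setd2 f/f), and CTRL libraries (2) from mice that also carried Foxp3Cre-YFP but only 1 floxed allele (Setd2 f/+). Both groups therefore carried the Cre transgene, and the CTRL cells could lose 1 copy of Setd2. Setd2 is the methyltransferase that places H3K36me3 on gene bodies. Cre is driven from Foxp3, so the deletion is limited to Foxp3-expressing cells, and each library pooled cells of 2 littermate mice. The depth behind the FPKM values was 32803683 to 35460567 fragments per library, with 15913 to 16410 genes above 0 in 3 libraries and 19100 in CTRL replicate 1. Setd2 itself was 23.4 and 25.3 FPKM in CTRL and 21.3 and 19.5 FPKM in KO, a log2 difference of -0.24 (SE 0.0763) that did not pass the threshold (limma adjusted p = 0.0970). This value sums all exons of the gene and does not isolate the floxed segment. Summed over Foxp3, Il2ra, Ctla4, Ikzf2, Cd3e and Cd4, the Treg markers reached 1373 to 1454 FPKM in every library, whereas the myeloid markers Lyz2, Itgam and Csf1r summed to 78.1 to 189 FPKM the B-cell markers to 18.2 to 31.3 FPKM, the CD8 T-cell markers to 8.49 to 11.4 FPKM, the erythroid markers to 2.21 to 19.9 FPKM and the NK-cell markers to 2.14 to 2.56 FPKM, with no marker at 0 in all libraries. The myeloid, B-cell and erythroid sums were higher in replicate 1 than in replicate 2 of both groups, and their part in the results was not tested.

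Box C/D snoRNAs guide ribose methylation, and box H/ACA snoRNAs guide pseudouridylation, of ribosomal RNA and of small nuclear RNAs. A few act in cleavage of the ribosomal RNA precursor instead. In mammals most are cut out of introns of host genes, many of which encode ribosomal or translation proteins. Gas5 and the Snhg genes are hosts whose spliced transcripts are noncoding. A mature snoRNA is a trimmed stretch of the intron, bound by its core proteins, and has no poly(A) tail, and these libraries were prepared after selection on oligo(dT). A fragment counted over a snoRNA gene may therefore come from a precursor, an unspliced or exonic host transcript, or residual mature snoRNA, and the values cannot tell these apart. In bulk samples, fewer cells carrying a transcript and less of it per cell also cannot be told apart.

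The sequences of snoRNA genes on which the results turn most are shown, taken from the GENCODE vM21 transcripts on GRCm38, with the box C letters TGATGA and the box D letters CTGA in capitals for C/D genes, and the ACA near the end in capitals for H/ACA genes. The copies of Snord14, the U14 snoRNA that is needed for maturation of small-subunit rRNA, are given together because they lie in 2 different hosts. Snord14a lies at chr7:116333171-116333257 on the minus strand in Rps13, and Snord14c, Snord14d and Snord14e lie at chr9:40803583-40803668, chr9:40803995-40804080 and chr9:40804748-40804837 on the plus strand in Hspa8.
Snord14a: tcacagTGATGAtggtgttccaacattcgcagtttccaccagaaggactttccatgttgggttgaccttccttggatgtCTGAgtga
Snord14c: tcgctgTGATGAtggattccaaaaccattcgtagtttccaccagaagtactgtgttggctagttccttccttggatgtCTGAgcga
Snord14d: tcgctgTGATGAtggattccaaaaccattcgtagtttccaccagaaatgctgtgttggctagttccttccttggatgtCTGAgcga
Snord14e: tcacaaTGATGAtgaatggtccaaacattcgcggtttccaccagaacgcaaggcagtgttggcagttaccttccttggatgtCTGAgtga

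The 4 copies shared a stretch of 19 bases next to box D, ccttccttggatgtCTGAg, and one of 13 bases further upstream, gtttccaccagaa. Snord14c and Snord14d differed at 2 positions, so a fragment lying wholly within the gene could be assigned to either only where it covers one of these. The other sequences shown are those of the box C/D gene Snord15b (chr7:99479563-99479707, minus strand, in Rps3) and the box H/ACA genes Snora65 (chr2:32963291-32963420, plus strand, in Rpl12) and Snora16a (chr4:132309465-132309600, plus strand, in Snhg12). Snora65 had the lowest adjusted p among snoRNAs, and Snora16a the most negative difference.
Snord15b: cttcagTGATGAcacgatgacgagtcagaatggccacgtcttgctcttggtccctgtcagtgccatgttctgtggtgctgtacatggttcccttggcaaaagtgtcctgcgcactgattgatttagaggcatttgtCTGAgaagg
Snora65: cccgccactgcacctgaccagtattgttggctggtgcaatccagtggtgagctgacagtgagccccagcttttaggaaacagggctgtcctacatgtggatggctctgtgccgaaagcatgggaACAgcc
Snora16a: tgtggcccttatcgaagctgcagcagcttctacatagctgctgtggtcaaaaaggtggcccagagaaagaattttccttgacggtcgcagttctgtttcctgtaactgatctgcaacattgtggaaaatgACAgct

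The box letters were searched on the RNA strand only. TGATGA was found within the first 20 bases of 38 of 59 Snord genes and CTGA within the last 20 bases of 58, with both in 37. In windows of 80 bases at the start of 58754 protein-coding transcripts, treated the same way, these shares were 0.361% for TGATGA, 9.7% for CTGA and 0.034% for both. ACA lay within the last 15 bases of 31 of 33 Snora genes, against 14.8% of those windows. Matches describe the annotated genes and do not show that a box is used.

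Across the snoRNA genes as a class, fewer fragments were counted in KO than in CTRL. Summed over all 92 genes, CTRL replicates 1 and 2 held 4985 and 5048 fragments and KO replicates 1 and 2 held 4091 and 4141. Scaled to counts per 1000000 counted fragments of the library (CPM), these were 152 and 146 CPM in CTRL and 116 and 117 CPM in KO. The groups did not overlap, and the spread within each was small beside the gap between them. The KO sum was 0.782 times the CTRL sum (95% exact binomial interval 0.759 to 0.805, for counting error only, since fragments from PCR are not independent molecules). An exact two-sided permutation test over 2 against 2 libraries gave p = 0.333, the smallest value that this design allows.

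The difference was present in both families. Box C/D genes summed to 74.2 and 69.3 CPM in CTRL and 54.1 and 55.6 in KO, a KO to CTRL ratio of 0.765 (0.733 to 0.798). Box H/ACA genes summed to 77.8 and 76.4 CPM in CTRL and 61.8 and 61.2 in KO, a ratio of 0.798 (0.766 to 0.831). Without the 5 genes with most fragments, the sums were 98.3 and 94.5 CPM in CTRL, 73.2 and 74.9 in KO, with a ratio of 0.769 (0.741 to 0.797).

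**Figure D1:**
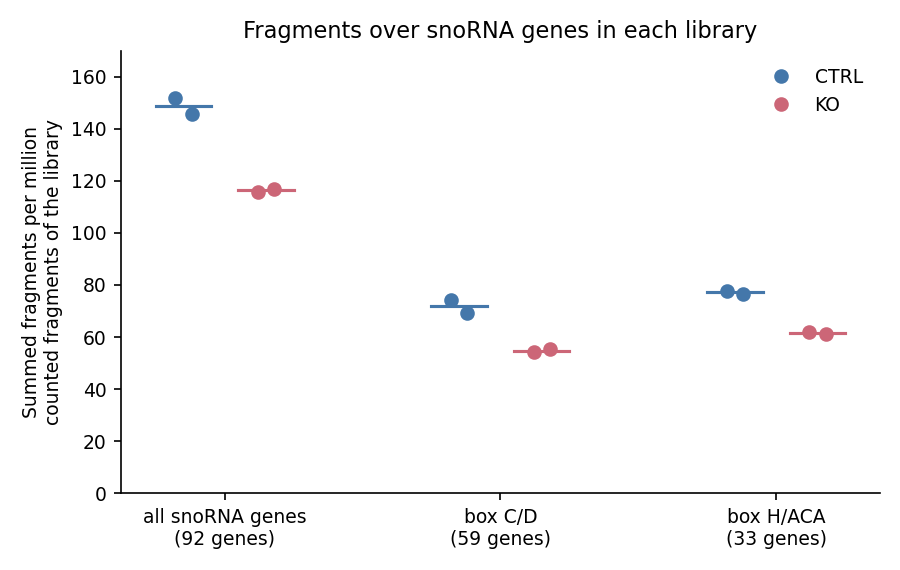
Fragments over snoRNA genes per 1000000 counted fragments (y axis, from 0) for all 92 snoRNA genes, the 59 box C/D genes and the 33 box H/ACA genes. Each point is a library, horizontal lines are group means, and KO points (116 and 117 for all genes) lie below CTRL points (152 and 146).

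Gene by gene, the comparison was fitted with limma on log2(FPKM + 1) over all 11399 genes, and a gene was called when its Benjamini-Hochberg adjusted p over all of them was under 0.05. On this scale a fold change understates the change of a gene with a low FPKM. Of the 68 snoRNA genes tested, 11 were lower in KO and 0 higher, whereas 4.65% of all genes were called lower and 5.10% higher. At an unadjusted p under 0.05 there were 29 of 68 in either direction, beside 34.7% of all genes. With any 1 library left out, 0 snoRNA genes were called, in a table that then held at most 1 call in either direction. The median log2 difference of the snoRNA genes was -0.35, against -0.02 for all genes tested, and 56 of 68 lay below 0. In 34 of 68 both KO libraries were below both CTRL libraries, an order seen in 35.5% of all genes, and in 2 of 68 both were above, seen in 29.0% of all genes. The 43 box C/D genes tested held 8 of the called genes (median -0.35) and the 25 box H/ACA genes 3 (median -0.26). Of the 81 snoRNA genes with any fragment, 64 had a KO to CTRL ratio below 1 and 16 above 1, and Snord82, an intronic box C/D gene of Ncl, had 4 fragments in KO replicate 2 and 0 in the other libraries.

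Genes named for microRNAs and the class that holds many hosts were read in the same fit. The 77 tested genes with microRNA symbols had a median of -0.06, with 4 higher and 3 lower in KO, and 44 of 77 lay below 0. They were chosen by symbol alone, which can also take in longer host transcripts, and their lengths were not checked. The 103 cytosolic ribosomal protein genes tested, which include many snoRNA hosts, had a median of -0.16 with 0 higher and 7 lower. Of these 103, 85 lay below 0 and 66 had both KO libraries below both CTRL libraries, so a lean to lower values was also seen in this class, with a smaller median difference than in snoRNA genes. No test of these differences between classes was made.

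The called genes with the most negative values were low in abundance. Snord3a, a copy of the U3 snoRNA that acts in cleavage of the rRNA precursor, was 7.62 and 8.33 FPKM in CTRL replicates 1 and 2 and 3.27 and 4.07 FPKM in KO replicates 1 and 2. It fell by 0.95 on the log2 scale (SE 0.116, adjusted p = 0.0346), and no library of one group overlapped the other. Snord3a is not intronic, having no host on its strand, and 6.32% of its 40-base stretches occur in another gene. Snord14d, a U14 copy in Hspa8, was 7.71 and 8.63 FPKM in CTRL and 2.60 and 4.54 FPKM in KO. It fell by 1.04 (SE 0.215, adjusted p = 0.0494), close to the threshold. These values rest on 22 and 26 fragments in CTRL and 8 and 14 in KO. Snord15b, which guides methylation of large-subunit rRNA, was 12.4 and 11.0 FPKM in CTRL and 6.84 and 6.22 FPKM in KO, and fell by 0.75 (SE 0.0940, adjusted p = 0.0346).

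The other U14 copies lay in the same direction but differed in level and in evidence. Snord14a, in Rps13, was the most abundant, at 76.0 and 68.0 FPKM in CTRL and 42.6 and 48.3 FPKM in KO, and fell by 0.65 (SE 0.0901, adjusted p = 0.0351). Snord14e was 8.37 and 11.4 FPKM in CTRL and 3.42 and 5.89 FPKM in KO, a difference of -0.97 (adjusted p = 0.0679) that missed the threshold with both KO libraries below both CTRL libraries. Snord14c was 8.06 and 4.31 FPKM in CTRL and 2.60 and 5.51 FPKM in KO, so its groups overlapped (-0.52, adjusted p = 0.373). Snord14c and Snord14e are outside the rule for named genes and are shown, after their values were seen, because they complete the family printed above.

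Among H/ACA genes, 3 were called. Snora65, which guides pseudouridylation of large-subunit rRNA, was 70.8 and 72.4 FPKM in CTRL and 50.2 and 50.4 FPKM in KO, and fell by 0.50 (SE 0.0517, adjusted p = 0.0306). The groups did not overlap, but 59.3% of its 40-base stretches occur in another annotated gene, so its level is uncertain where the counting could split such fragments. Snora81, another guide for large-subunit rRNA, was 125 and 115 FPKM in CTRL and 76.3 and 89.1 FPKM in KO, and fell by 0.53 (SE 0.0932, adjusted p = 0.0405). It had the most fragments of any snoRNA, 672 and 652 in CTRL and 442 and 518 in KO, and 50.4% of its stretches are shared with another gene. Snora69 was 4.75 and 4.73 FPKM in CTRL and 3.02 and 2.54 FPKM in KO, and fell by 0.61 (SE 0.105, adjusted p = 0.0402) on 11 to 20 fragments per library.

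The remaining called genes were box C/D genes with smaller differences. Snord22, in Snhg1, was 43.1 and 39.4 FPKM in CTRL and 27.4 and 31.6 FPKM in KO, and fell by 0.47 (SE 0.0905, adjusted p = 0.0433). Snord73b, in Rps3a1, was 32.2 and 36.6 FPKM in CTRL and 26.3 and 23.4 FPKM in KO, and fell by 0.45 (SE 0.0935, adjusted p = 0.0490). For these genes and the next 2, both KO libraries were below both CTRL libraries. Snord96a, in Rack1, the most abundant snoRNA by FPKM, was 141 and 127 FPKM in CTRL and 106 and 104 FPKM in KO, and fell by 0.35 (SE 0.0693, adjusted p = 0.0462). Snord2, in Eif4a2, was 65.9 and 70.9 FPKM in CTRL and 55.4 and 51.8 FPKM in KO, and fell by 0.35 (SE 0.0671, adjusted p = 0.0440).

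Not every abundant or strongly shifted snoRNA was called. Snora16a had the most negative difference, with 13.4 and 9.77 FPKM in CTRL and 5.83 and 3.32 FPKM in KO (log2 difference -1.20, SE 0.258, adjusted p = 0.0514), and its groups did not overlap. Snord1c, in Snhg16, was 5.47 and 1.85 FPKM in CTRL and 1.45 and 0.723 FPKM in KO (-1.06, SE 0.419, adjusted p = 0.147), and its difference was -0.47 without CTRL replicate 1 and -1.65 without CTRL replicate 2. All of its 40-base stretches occur in another gene, and it had 2 to 14 fragments per library. Snord49a was 76.7 and 75.9 FPKM in CTRL and 49.3 and 62.3 FPKM in KO (-0.45, adjusted p = 0.0670, and -0.29 without KO replicate 1). Snord104 was 75.2 and 77.5 FPKM in CTRL and 66.7 and 48.3 FPKM in KO (-0.42, adjusted p = 0.126, and -0.65 without KO replicate 1 or -0.19 without KO replicate 2). In both, the CTRL libraries were close together and the KO libraries apart. Snora28, in Eif5, was at a similar level to these, but its KO libraries of 84.7 and 60.6 FPKM lay on either side of the CTRL libraries of 68.5 and 66.7 FPKM (0.08, adjusted p = 0.748, negative without KO replicate 1). The highest positive differences were those of Snord3b1 (0.44, adjusted p = 0.305), Snord89 (0.33, adjusted p = 0.241) and Snord52 (0.15, adjusted p = 0.678, negative without CTRL replicate 2). All had mean levels under 5 FPKM, and Snord3b1, a U3 copy, shares all of its stretches with other U3 genes.

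**Figure D2:**
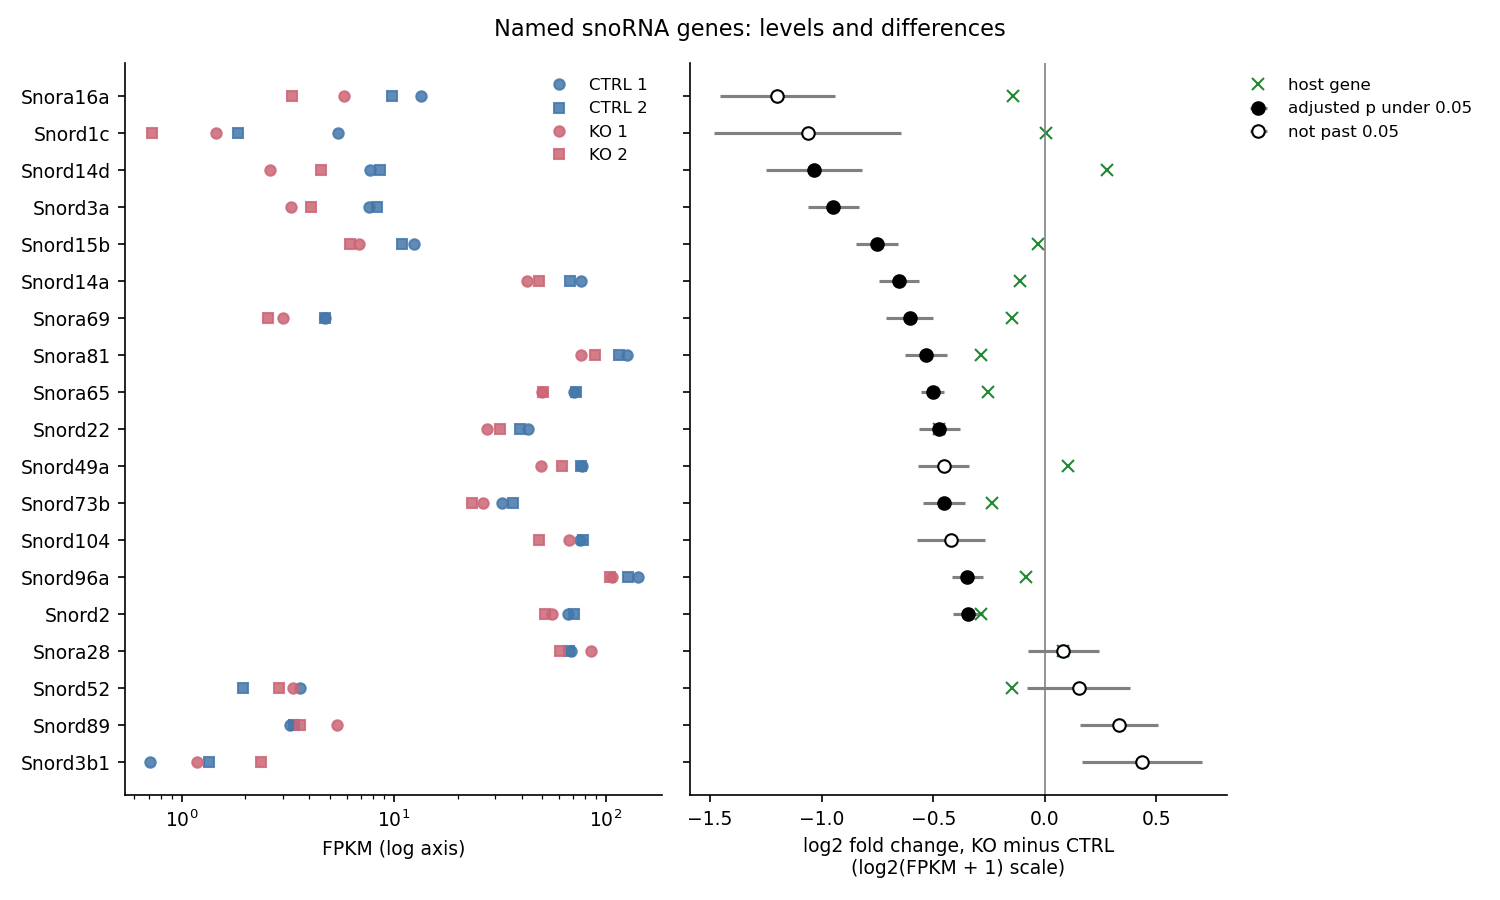
The 19 named snoRNA genes. Left, FPKM in each library on a log axis. Right, log2 difference KO minus CTRL on the log2(FPKM + 1) scale with its SE as bars, filled where the adjusted p was under 0.05, with crosses for the host gene where one was tested. The 11 filled points all lie below 0, from -1.04 to -0.35, and the crosses lie to their right except for Snord22, whose host Snhg1 is at the same value.

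The depth behind single snoRNA genes was low, and in simulated data the fit called more unchanged genes than its threshold allows. Over the 68 tested, a library held between 1 and 672 fragments per gene, with a median of 31.5. The counting error alone, taken from the fragments, was larger than the fitted SE in 56 of 68 genes and in 10 of the 11 called, all except Snora81. The scales differ, since the counting error is that of a log2 fragment ratio and the fitted SE that of log2(FPKM + 1). Adding 1 narrows the fitted SE of genes with a low FPKM, which raises the number of such genes. In all 11 called genes the counting interval of the KO to CTRL ratio was below 1, though for Snora69 its upper bound rounded to 1.00. Intervals were below 1 in 25 of the 68 tested genes and above 1 in 0, and the shares over all genes were not taken. With limma-voom on the recovered fragments, which weights genes by depth, 2 snoRNA genes passed, Snora81 (adjusted p = 0.0331) and Snord14a (adjusted p = 0.0496), where 8.95% of all genes were lower. Of 14 genes with a mean of at least 100 fragments per library, 11 lay below 0 and the median was -0.37. Of these 14, 6 were called lower, beside 4.65% of all genes, and the share among other genes of similar depth was not taken. The difference between the replicates of CTRL was also wider for snoRNA genes, with a median absolute log2 difference of 0.21 against 0.10 for all genes tested.

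**Figure D3:**
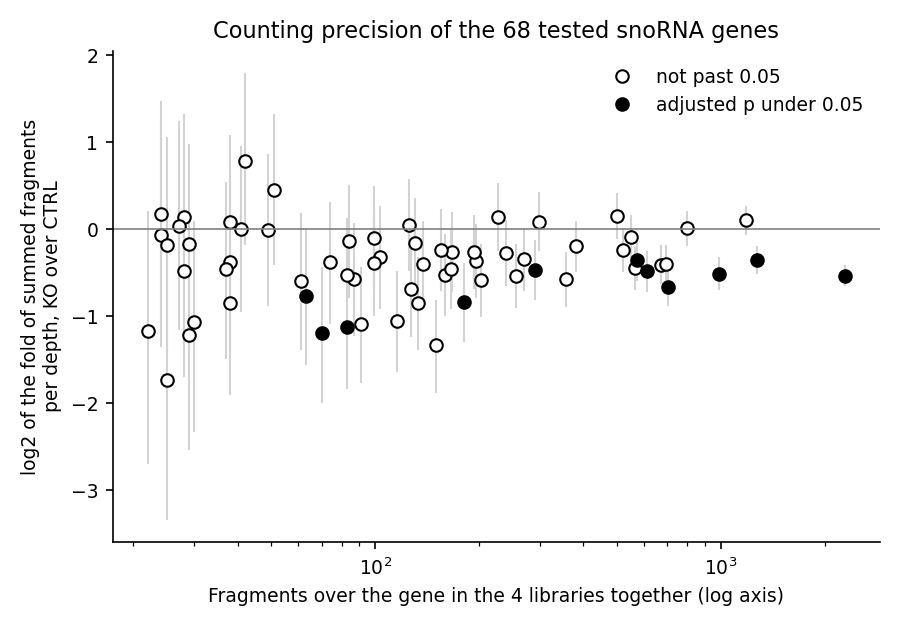
The log2 ratio of summed fragments per depth, KO over CTRL (y axis), against the fragments over the gene in the 4 libraries together (log x axis) for the 68 tested snoRNA genes, with 95% exact binomial intervals as grey bars and called genes filled. Intervals narrow to the right, and the point with most fragments, Snora81, is at a ratio of 0.691 (0.635 to 0.751).

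The level of each snoRNA was set beside that of the gene that holds it. A host on the same strand was present in the table for 63 of the 68 tested snoRNA genes, and 60 of these hosts passed the filter, representing 45 distinct genes. The snoRNA difference lay below the host difference in 44 of 60 pairs, with a median gap of -0.21 on the log2 scale. Several snoRNAs share a host, so the pairs are not independent, and the gap was not tested. Over the 45 hosts, 3 were lower and 0 higher, beside 4.65% and 5.10% of all genes, with a median of -0.13. In 27 pairs whose host encodes a ribosomal protein or Rack1, the median difference was -0.24 for snoRNAs and -0.11 for hosts. In the other 33 pairs it was -0.45 for snoRNAs and -0.12 for hosts.

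Single loci showed how far the values could part. Hspa8, a constitutive chaperone gene, was 664 and 663 FPKM in CTRL and 840 and 774 FPKM in KO (0.28, SE 0.0659, adjusted p = 0.0591), whereas Snord14d within it fell. Rps13, the host of Snord14a, was 833 and 862 FPKM in CTRL and 771 and 797 FPKM in KO (-0.11, adjusted p = 0.240). Rps3, the host of Snord15b, was 626 and 670 FPKM in CTRL and 614 and 653 FPKM in KO (-0.03, adjusted p = 0.772, with a sign that changed when CTRL replicate 2 or KO replicate 1 was left out). At the other extreme, Snord22 and its host Snhg1 differed between groups by the same amount, -0.47.

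The hosts of the other named snoRNAs gave differences between these. Rpl12 (-0.25, adjusted p = 0.0846), Eif4a2 (-0.29, adjusted p = 0.0619) and Rps3a1 (-0.24, adjusted p = 0.0662) were below 0 without passing the threshold. Rack1 was at -0.08 (adjusted p = 0.338), 1110038B12Rik at -0.15 (adjusted p = 0.174), Eif5 at 0.08 (adjusted p = 0.441) and 2410006H16Rik, which holds Snord49a, at 0.11 (adjusted p = 0.310), the signs of the last 2 changing with quantile normalization. Rpl39, which holds Snora69, was listed at 0.787 to 1.47 FPKM, whereas the other ribosomal protein hosts named here were at 614 FPKM or more. Whether fragments of Rpl39 were lost in counting was not tested, so its level is uncertain. On these values Snora69 was the single snoRNA of 60 above its tested host in CTRL. Snora78, Snord3b3 and Snord3b1 were also above the genes that span them, which did not pass the filter. Tex14, which spans Snord3b1 and Snord3b3, was at 0.127 to 0.307 FPKM and was not tested. Its span alone does not show that these U3 copies are made from its transcript. Across the pairs, the snoRNA level per length in CTRL was a median of 3.59% of the host level.

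The annotation places part of these genes under exons. Of the 63 tested snoRNA genes with a host, 33 were intronic in every annotated host transcript (median log2 difference -0.35) and 30 lay under an exon of at least 1 host transcript, such as a retained intron (median -0.35). How fragments that overlap both genes were assigned, and whether strand was used, is not given in the sources used here, so host and snoRNA values are uncertain where they overlap.

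**Figure D4:**
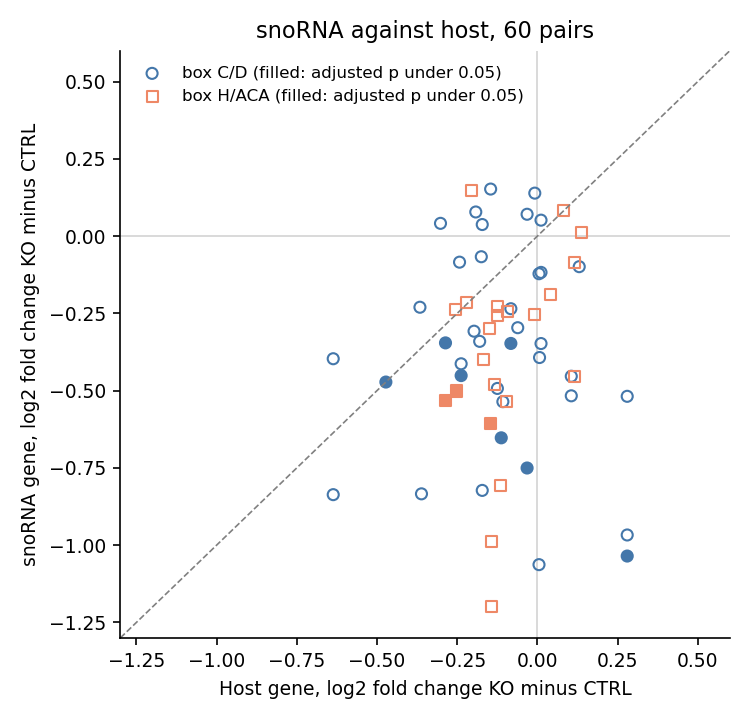
Log2 difference KO minus CTRL of the snoRNA gene (y axis) against that of its host (x axis) for 60 pairs, both on the log2(FPKM + 1) scale, with circles for box C/D, squares for box H/ACA and filled symbols for called snoRNAs. The dashed line marks equal differences, and 44 of 60 points lie below it.

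Of the 11 tested named host genes, 0 were called in either direction, where 4.65% of all genes were lower and 5.10% higher. At an unadjusted p under 0.05 there were 5 of 11, beside 34.7% of all genes, and limma-voom called 3 of 11 lower, beside 8.95% of all genes. Their median log2 difference was -0.14, 8 lay below 0, both KO libraries were below both CTRL libraries in 5 and above in 1. The share of all genes with both KO libraries below both CTRL libraries was 35.5%.

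The most negative values among the named hosts were those of Snhg8, Snhg1 and Gas5. Snhg1, host of a cluster of C/D snoRNAs, was 178 and 144 FPKM in CTRL and 116 and 114 FPKM in KO (-0.47, SE 0.107, adjusted p = 0.0555, and 0.0348 with limma-voom). Gas5, which holds C/D snoRNAs and whose spliced RNA accumulates when growth stops, was 105 and 90.9 FPKM in CTRL and 78.3 and 73.4 FPKM in KO (-0.36, SE 0.0863, adjusted p = 0.0605, and 0.0363 with limma-voom). Snhg8 was 33.7 and 26.4 FPKM in CTRL and 19.1 and 21.3 FPKM in KO (-0.54, SE 0.131, adjusted p = 0.0610, and 0.0480 with limma-voom). In all 3 the KO libraries were below both CTRL libraries and the calls depended on the test. Snora24, the H/ACA gene inside Snhg8, was at 0 in every library.

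Snhg15 was 30.7 and 27.3 FPKM in CTRL and 25.7 and 22.3 FPKM in KO (-0.26, adjusted p = 0.134), and Snhg6 was 35.4 and 32.9 FPKM in CTRL and 28.5 and 30.8 FPKM in KO (-0.20, adjusted p = 0.126). These 2 also had separated groups. Snhg12, the host of Snora16a and Snora44, was 58.2 and 60.2 FPKM in CTRL and 59.1 and 48.4 FPKM in KO (-0.14, adjusted p = 0.377), with overlapping groups. Snora44, named here after its value was seen because it shares this host, was 9.38 and 10.1 FPKM in CTRL and 6.54 and 2.89 FPKM in KO (-0.99, adjusted p = 0.0968).

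The other hosts were near 0 or above. Snhg4 (-0.13, adjusted p = 0.641), Snhg20 (-0.01, adjusted p = 0.927), Snhg16 (0.01, adjusted p = 0.966) and Snhg10 (0.02, adjusted p = 0.943) had overlapping groups, and the sign of each changed under at least 1 other setting. Snhg5 had the one positive difference with separated groups, at 45.2 and 40.6 FPKM in CTRL and 55.6 and 46.7 FPKM in KO (0.24, SE 0.105, adjusted p = 0.171), both KO libraries above both CTRL libraries.

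**Figure D5:**
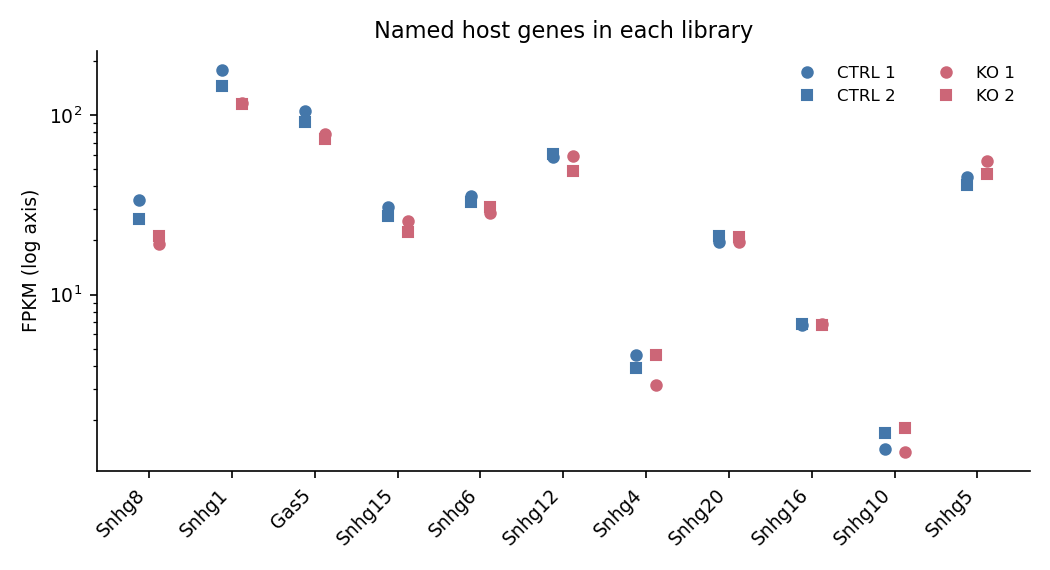
FPKM (log axis) of the 11 tested named host genes in each library, ordered by log2 difference from Snhg8 (-0.54) to Snhg5 (0.24), with circles for replicate 1 and squares for replicate 2. KO points lie below CTRL points for Snhg8, Snhg1, Gas5, Snhg15 and Snhg6, above them for Snhg5, and overlap for the other hosts.

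Among genes for proteins that make, carry or degrade these RNAs, 1 was called, where 4.65% of all genes were lower and 5.10% higher. The 4 tested box C/D core proteins gave 0 called genes (median -0.10), including the methyltransferase Fbl at 105 and 107 FPKM in CTRL and 100.3 and 98.3 FPKM in KO (-0.09, adjusted p = 0.255). Nop56 was at -0.17 (adjusted p = 0.0889) and Snu13 at -0.10 (adjusted p = 0.288). The 4 box H/ACA core genes also gave 0 (median -0.11), with 2 below 0 and values from -0.33 for Nop10 to 0.35 for Nhp2. The 11 assembly factors (median 0.0037) and the 18 factors of release and trimming (median -0.01) gave 0 as well. Assembly factors ranged from -0.38 for Tgs1 (adjusted p = 0.0517) to 0.25 for Pih1d1 (adjusted p = 0.0685). Factors of release and trimming ranged from -0.22 for Exosc1 to 0.32 for Exosc8. The exonuclease gene Xrn2 was at -0.08 (adjusted p = 0.472). At an unadjusted p under 0.05 these 4 lists held 1, 2, 4 and 3 genes, where 34.7% of all genes were under it. Of 10 genes of nonsense-mediated decay, the pathway that degrades the spliced RNAs of several noncoding hosts, 1 was lower. This was the kinase Smg1, at 35.8 and 38.1 FPKM in CTRL and 25.8 and 25.4 FPKM in KO, which fell by 0.51 (SE 0.0611, adjusted p = 0.0346). Of the 10 decay genes, 1 had an unadjusted limma p under 0.05, beside 34.7% of all genes. The list median was -0.04, against -0.02 over all genes tested.

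The members outside the comparison had low or 0 values. At 0 in all libraries were 11 snoRNA genes (6 C/D and 5 H/ACA), among them the imprinted Snord116l1 and Snord116l2, and the hosts Snhg11 and Snhg18. A count of 0 allows up to 3 fragments in a library, or 0.0846 to 0.0915 CPM, if no fragments were lost in counting. All stretches of Snord116l1 and Snord116l2 also occur in other annotated genes. Of the 11 snoRNA genes at 0, 4 lay under an exon of a host transcript, as did 33 of the 74 above 0 with a host. Whether fragments of these genes were lost in counting was not tested, so a 0 does not show absence. Of the 79 members that passed the FPKM limit, 73 were at or above 1 FPKM in all 4 libraries, 1 in exactly 2, and 0 passed through CTRL alone or KO alone. Just inside the limit were Snord3b3 and Snord3b1, with second-highest values of 1.18 and 1.34 FPKM. Just outside were Snord67 and Snora15, with second-highest values of 0.863 and 0.788 FPKM.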

How the data were processed

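Deposited values were one table of FPKM per gene in the 4 splenic Treg libraries, labelled WT and KO and matched to the CTRL and KO samples by replicate number. Per the labels and the study's methods, RNA selected on oligo(dT) was sequenced as read pairs, and the authors mapped reads to mm10 with HISAT2 2.2.1 and counted with featureCounts 2.0.1. Their tests with edgeR 3.34.0 were not used. Members and gene lists were chosen with earlier results of these data known.

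FPKM was tested as log2(FPKM + 1) with limma 3.58.1 (R 4.3.3; lmFit, eBayes with trend, two-sided, Benjamini-Hochberg) over genes at 1 FPKM or more in 2 or more libraries, with no covariate. Positive differences are higher in KO. On simulated data with known changes, the fit recovered most changed genes but also called more unchanged ones than the adjusted threshold of 0.05 allows. Replicates are pools of littermates, so p-values measure the spread between pools. Library depths were recovered as the whole number that makes FPKM times RefSeq length a whole fragment count (tolerance 0.02 fragments): 76 of 76 snoRNA genes above 0 with a RefSeq length (GRCm38.p6) fitted in all libraries, whereas fragments of the other 5 and of the hosts are lower bounds. Positions, hosts and sequences came from GENCODE vM21, in which all 107 members matched. Intervals are exact binomial at 95%. Named were every called snoRNA, the 5 most abundant, the 3 highest and 3 lowest differences, all tested named hosts, hosts of named snoRNAs, and list genes past the threshold with 4 further by level. Alternatives were another pseudocount, filters, scalings, trend settings, a replicate block, limma-voom and leaving out each library.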

Additional observations from a re-analysis of the deposited data

How the results depend on the processing

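The median log2 difference stayed below 0 in every setting, from -0.40 to -0.30 for snoRNA genes and from -0.23 to -0.12 for named hosts. In every setting 0 members were called higher. The number of snoRNA genes called lower (11) was 0 when all genes above 0 were tested, 5 without the variance trend, 2 with limma-voom and 22 with a replicate block, while genes called lower in the whole table (530) numbered 0, 364, 1020 and 805, and it ranged from 0 to 0 when each library was left out, where at most 1 gene of the whole table was called in either direction. It was 10 to 12 otherwise. Named hosts called lower (0) were 3 with limma-voom, 2 with a mean FPKM above 5, 1 with median-ratio scaling, 2 with quantile normalization, 1 with robust eBayes and 3 with the replicate block. In the same order, genes called lower in the whole table numbered 1020, 622, 475, 479, 753 and 805. The numbers share no stated animal or day (correlation of same-numbered deviations 0.342), so the block is given only here. The cause of these shifts was not tested.

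Differences that changed sign were all uncalled. With quantile normalization they were 2410006H16Rik (-0.015), Eif5 (-0.030) and Snhg20 (0.0050), with median-ratio scaling Snhg20 (0.0069), and scaled to the same sum Snhg16 (-0.0072). With each library left out in turn, the values ranged from -0.35 to 0.055 for Rpl39, -0.081 to 0.017 for Rps3, -0.12 to 0.15 for Snhg10, -0.0059 to 0.016 for Snhg16, -0.059 to 0.037 for Snhg20, -0.35 to 0.092 for Snhg4, -0.16 to 0.32 for Snora28 and -0.17 to 0.47 for Snord52. With hosts on either strand, 1 snoRNA gene changed host and the median gap was -0.21 over 61 pairs. Low fragment numbers limit most single snoRNA genes.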
